A study of Mus musculus with 6 samples.

Results

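The Hox cluster genes were read by 52 of the 56605 non-control probes of the arrays, chosen as every probe whose gene name in the deposited files is Hox followed by a cluster letter (a to d) and a paralogue number. These probes stand for 39 of the 37008 gene names on the arrays. The rule uses gene names and no values, but it was set with earlier results of these data known. RNA came from a dissection labelled brainstem/cerebellum of mice aged 16 weeks, on a mixed background that the labels give as C57BL/6, 129 and C3H for both genotypes. The labels give 3 samples as wild type and 3 as MSA Transgenic, each on 1 single-colour array. What MSA stands for, which transgene the mice carry, which promoter drives it and how far back the dissection reached are not in the labels. Whether each sample is an animal of its own is not stated either, and a p-value here covers only sample-to-sample spread, which may be technical. The series asks how gene expression in the transgenic brain differs from that in the wild-type brain at this age.

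Hox genes encode homeodomain transcription factors and lie in 4 clusters, in which genes of one position share a paralogue number from 1 to 13. The order of the genes along a cluster matches the order of their expression limits along the body axis, low numbers reaching furthest forward and high numbers confined to the trunk. The cerebellum forms ahead of the Hox domains, the pons and medulla express low and middle numbers, and middle to high numbers mark the caudal medulla and spinal cord. This pattern persists in the adult nervous system. The paralogue number of a transcript relates to the forward limit of its expression and not to a single position along that axis. In bulk RNA, fewer cells of a type and less RNA per cell cannot be told apart.

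Over all probes, wild-type replicate 1 stood apart from the other arrays. It was alone on slide 1, its correlation with the others over tested probes was 0.974 to 0.978 against 0.991 to 0.996 among the 5 arrays of slide 2, and its 75th percentile signal was 406 intensity units against 535.0 to 609. Between 64.8% (this array) and 71.7% of all probes lay well above background, which is the scanner software's call used for detection below. Levels are given as a percent of the array's 75th percentile signal, or as log2 of that ratio, and they compare arrays for 1 probe and never 1 probe with another. The markers of both labelled regions were present on every array, among them Gabra6 of cerebellar granule cells at 1650 to 2851% and Slc6a5 of glycinergic brainstem neurons at 384 to 441%.

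Upstream sequence of 4 members is shown because they span the range described below, from Hoxb8 and Hoxa7, which varied strongly between samples, through Hoxb4 to Hoxa2, which varied little. Each line holds the 250 bases before the annotated start, read along the gene's strand, from the RefSeq promoter table on GRCm38.p6. Hoxb8 lies at chr11:96281655-96281904 (plus strand), Hoxa7 at chr6:52218574-52218823 (minus strand), Hoxb4 at chr11:96318017-96318266 (plus strand) and Hoxa2 at chr6:52164832-52165081 (minus strand). Capitals mark TAAT, the core recognised by homeodomains, TGATNNAT, the form bound by a Hox protein with a Pbx partner, and TTTATG, the form preferred by the caudal regulators of the Cdx family. Both strands were searched, and matches that overlap are merged into one run of capitals.
Hoxb8: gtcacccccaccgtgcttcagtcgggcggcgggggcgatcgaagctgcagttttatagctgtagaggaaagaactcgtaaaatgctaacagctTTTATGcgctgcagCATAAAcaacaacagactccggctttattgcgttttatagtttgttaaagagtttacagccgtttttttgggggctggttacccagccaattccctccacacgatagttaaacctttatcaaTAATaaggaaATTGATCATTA
Hoxa7: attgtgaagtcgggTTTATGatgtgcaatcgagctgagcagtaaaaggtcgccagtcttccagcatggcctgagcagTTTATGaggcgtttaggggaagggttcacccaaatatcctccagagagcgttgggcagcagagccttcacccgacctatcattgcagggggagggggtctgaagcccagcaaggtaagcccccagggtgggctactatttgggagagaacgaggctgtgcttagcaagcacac
Hoxb4: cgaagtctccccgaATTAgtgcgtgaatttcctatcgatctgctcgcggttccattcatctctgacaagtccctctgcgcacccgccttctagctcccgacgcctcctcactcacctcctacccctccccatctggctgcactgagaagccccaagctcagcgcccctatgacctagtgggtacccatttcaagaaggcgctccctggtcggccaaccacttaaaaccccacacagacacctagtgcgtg
Hoxa2: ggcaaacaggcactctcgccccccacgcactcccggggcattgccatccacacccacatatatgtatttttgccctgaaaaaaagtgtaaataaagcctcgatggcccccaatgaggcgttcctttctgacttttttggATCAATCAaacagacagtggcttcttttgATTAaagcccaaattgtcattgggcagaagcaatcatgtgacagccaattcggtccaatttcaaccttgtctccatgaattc
The Hoxb8 window held 2 matches to TAAT, 1 to TGATNNAT and 2 to TTTATG, and the TGATNNAT match overlaps a TAAT at its end. The Hoxa7 window held 2 matches to TTTATG and none to the others, the Hoxb4 window 1 TAAT, and the Hoxa2 window 1 TAAT and 1 TGATNNAT. The table holds 24 promoters of 22 of the 39 Hox genes. Of these, 18 (75%) held TAAT, 4 (16.7%) TGATNNAT and 5 (20.8%) TTTATG, where the shares over all 32841 promoters of the table were 54.9%, 7.69% and 10.8%. A match describes the letters of this window only.

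Which Hox genes were detectable followed the paralogue number. Of the 8 genes of paralogues 1 to 3, 6 were well above background on all 6 arrays and Hoxb1 on none. All 7 genes of paralogues 4 and 5 were detected on all 6 arrays. Of the 8 genes of paralogues 6 to 8, Hoxb6, Hoxc6 and Hoxa7 were detected on all 6 and Hoxc8 on none. Of the 16 genes of paralogues 9 to 13, none was detected on all arrays and 14 on no array. For those 14 genes the signal gives an upper bound only.

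**Figure D1:**
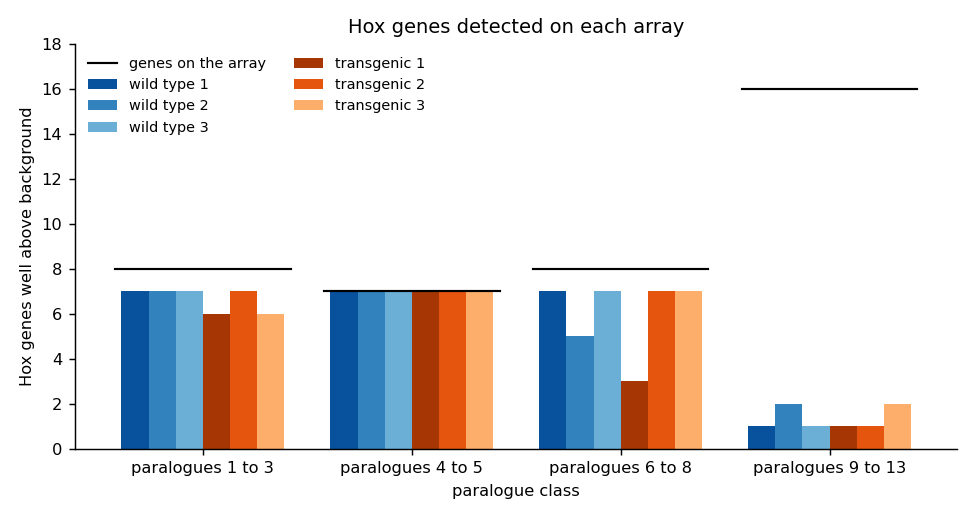
Bars give the number of Hox genes with at least 1 probe well above background on each array, by paralogue class, and black lines the number of genes on the array. All 7 genes of paralogues 4 and 5 were detected on every array, whereas genes of paralogues 6 to 8 numbered 3 on transgenic replicate 1, 5 on wild-type replicate 2 and 7 on the other 4 arrays.

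The arrays differed most in paralogues 6 to 8. In this class 7 genes were detected on wild-type replicates 1 and 3 and on transgenic replicates 2 and 3, 5 on wild-type replicate 2 and 3 on transgenic replicate 1. Over all 39 genes the number detected was 22, 21 and 22 on the wild-type arrays and 17, 22 and 22 on the transgenic arrays. Transgenic replicate 1 was therefore lowest in Hox genes detected, although 70.4% of all its probes were well above background, as on wild-type replicate 2.

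Hoxa2 was nearly level between samples. This gene, which specifies the second hindbrain segment and the second branchial arch, was at 13.5, 14.1 and 13.8% of the 75th percentile in wild-type replicates 1, 2 and 3 and at 12.1, 15.1 and 15.1% in transgenic replicates 1, 2 and 3. The groups overlapped, and the highest array was 1.24-fold above the lowest. Of all tested probes, 75.8% had a range over the 6 arrays at least as large.

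Hoxb2, which acts in the facial motor segment of the hindbrain, was read by a pair of probes. The brighter was at 64.0, 46.6 and 75.04% in wild-type and at 40.5, 55.1 and 45.9% in transgenic samples, and the other stayed between 4.06 and 5.46% on all arrays. The brighter probe was highest in wild-type replicate 3 and lowest in transgenic replicate 1, with overlapping groups. Its correlation with the other probe over the 6 arrays was 0.53.

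Hoxa3 and Hoxb3, whose paralogue group acts in the caudal hindbrain and pharyngeal arches, also had probes that differed. The brighter Hoxa3 probe was at 83.3, 45.4 and 75.6% in wild-type and at 38.2, 60.4 and 49.1% in transgenic samples, while a dimmer one lay between 2.57 and 3.57%. A further Hoxa3 probe was detected on no array. One Hoxb3 probe was at 31.6, 14.7 and 26.1% and at 10.6, 26.5 and 16.6%, high in wild-type replicates 1 and 3 and transgenic replicate 2. The other Hoxb3 probes were low on wild-type replicate 1 only, at 5.09% against 10.5 to 13.03% and at 9.95% against 20.4 to 23.7%. Without that array their log2 range fell from 1.36 to 0.32 and from 1.25 to 0.22, so their spread rested on the array that was alone on its slide. They correlated with each other at 0.96 over the 6 arrays and with the first probe at -0.55 and -0.51.

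Hoxd3 was at 12.2, 6.86 and 14.1% in wild-type and at 6.47, 13.4 and 6.73% in transgenic samples, and its groups overlapped. Hoxd1, a gene of pain-sensing neurons, was at 5.10, 3.70 and 7.37% in wild-type samples and at 1.11, 3.90 and 1.82% in transgenic samples. It was well above background on 3 wild-type arrays and on 1 transgenic array, and its transgenic replicate 2 lay above wild-type replicate 2.

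The tested genes of paralogues 4 to 8 had a largely shared order of samples. Hoxb4, a gene of the caudal hindbrain and spinal cord, was at 142, 65.7 and 128% in wild-type and at 54.9, 106.6 and 85.5% in transgenic samples. Hoxc4 was at 223, 97.8 and 191% and at 94.9, 152 and 138% in the same order. In both genes wild-type replicates 1 and 3 were highest, transgenic replicate 1 lowest, and wild-type replicate 2 lay below transgenic replicates 2 and 3, so the groups overlapped.

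Hoxd4 was at 75.4, 33.4 and 53.6% in wild-type and at 28.3, 46.2 and 36.8% in transgenic samples. Hoxa4 was at 15.6, 8.42 and 12.8% and at 7.84, 9.80 and 11.3%. Between the highest and the lowest array the paralogue 4 genes spanned from 1.98-fold for Hoxa4 to 2.67-fold for Hoxd4.

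Paralogue 5 genes spanned more. Hoxa5, which acts in the phrenic motor neurons that drive breathing, was at 78.9, 32.4 and 69.0% in wild-type and at 18.4, 59.3 and 41.6% in transgenic samples, a 4.28-fold span. Hoxb5 was at 215, 84.2 and 190.0% and at 54.8, 164 and 107.2%, a 3.93-fold span. Hoxc5, which acts with Hoxa5 in the phrenic neurons, was at 25.5, 17.955 and 36.8% and at 13.1, 26.4 and 23.2%, a 2.81-fold span. All 3 genes were lowest in transgenic replicate 1, and no group lay wholly above the other.

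**Figure D2:**
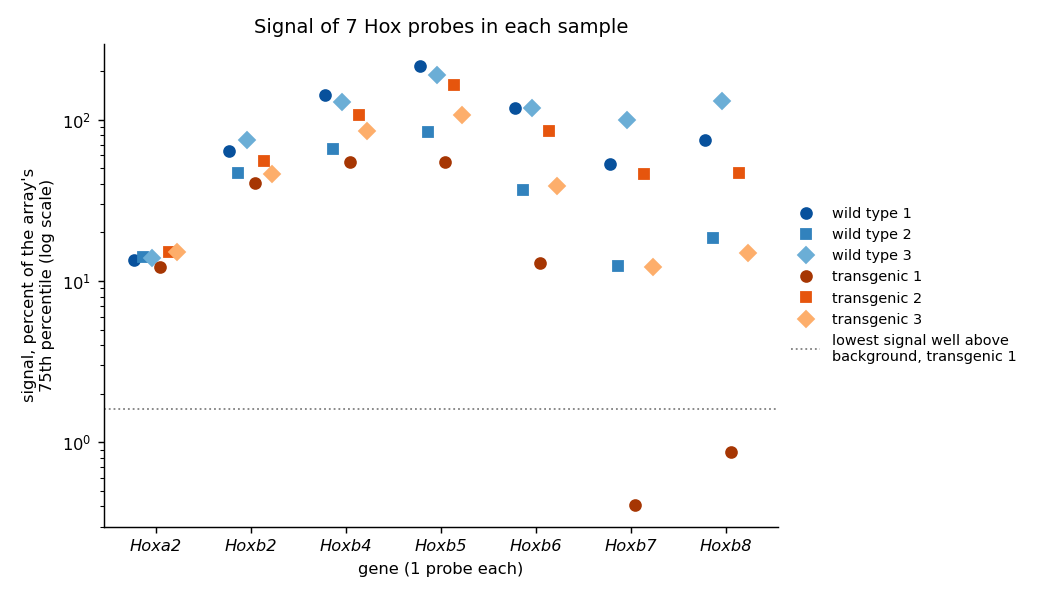
Points give the signal of 7 Hox probes in each of the 6 samples as a percent of the array's 75th percentile on a log axis, and levels compare samples within a probe only. The samples lie together for Hoxa2 and spread apart towards Hoxb8, with transgenic replicate 1 below the lowest signal well above background (1.60%, dotted line) for Hoxb7 and Hoxb8.

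Paralogues 6 to 8 carried the widest spread. Hoxb6 was at 119, 36.8 and 118% in wild-type and at 12.95, 85.4 and 38.8% in transgenic samples, a 9.18-fold span. Hoxc6, a gene of spinal motor neurons at forelimb level, was at 26.1, 7.63 and 29.0% and at 6.05, 15.6 and 7.97% on its brighter probe. Its other probe was at 10.6, 2.38 and 10.3% and at 3.08, 6.58 and 4.91%, lowest in wild-type replicate 2 in place of transgenic replicate 1. The Hoxc6 probes correlated at 0.93 with each other.

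Hoxa7 was at 19.0, 17.6 and 41.6% in wild-type and at 8.21, 21.2 and 10.2% in transgenic samples. Unlike Hoxb6, it was about as low in wild-type replicate 1 as in wild-type replicate 2, and wild-type replicate 3 stood alone above them. The span from the lowest to the highest array was 5.07-fold.

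Hoxb7 and Hoxb8 ranged from bright to undetected. Hoxb7, at chr11:96151412-96151471 (mm9 probe position), was at 53.1, 12.4 and 99.0% in wild-type and at 0.409, 46.2 and 12.2% in transgenic samples. Hoxb8, known for sensory circuits of the dorsal spinal cord and for a lineage of microglia, was at 75.3, 18.3 and 131% and at 0.874, 47.0 and 14.8% on the probe at chr11:96146576-96146635. Its second probe was at 25.7, 3.28 and 36.0% and at 0.457, 13.3 and 5.21%. On all 3 probes transgenic replicate 1 was not well above background, and the other 5 arrays were. Wild-type replicate 2 was close to transgenic replicate 3, and transgenic replicate 2 was nearer to wild-type replicate 1.

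Because transgenic replicate 1 was not detected there, its level was set at 1.60%, the lowest signal well above background on that array. This level, called a bound here, is not a strict limit. A Hoxd8 probe at 1.94% on the same array was not well above background. Against the bound wild-type replicate 3 was 62.0-fold higher for Hoxb7 and 82.0-fold and 22.5-fold higher on the Hoxb8 probes. With undetected signals of every tested probe raised to their array's bound in the same way, a range over the arrays as large as that of Hoxb7 was found in 10 of the 38463 tested probes (0.026%). For the Hoxb8 probes it was 6 (0.016%) and 37 (0.096%), and for Hoxb6 0.411% of all tested probes. These shares rest on bounds for Hoxb7 and Hoxb8. The Hoxb7 and Hoxb8 probes were also tested through the wild type alone, where they were high, so their shares are a description and support nothing further. The Hoxb8 probes correlated at 0.98 with each other over the 6 arrays.

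Other members of these classes were near the limit of detection. Hoxa6 was at 3.29, 0.561 and 2.74% in wild-type and at 1.498, 2.67 and 1.87% in transgenic samples. Hoxd8 was at 4.52, 1.34 and 5.83% and at 1.94, 2.20 and 2.24% on one probe, and its other probe was detected on no array. The Hoxa6 probe and the first Hoxd8 probe were each well above background on 2 wild-type and 2 transgenic arrays, and both were lowest in wild-type replicate 2.

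Only a single gene beyond paralogue 8 was tested. Hoxc10, a gene of the lumbar spinal cord, was at 0.782, 3.27 and 2.996% in wild-type and at 1.93, 1.92 and 2.54% in transgenic samples. It was not well above background on wild-type replicate 1, where Hoxb8 was bright, and it did not follow the order of paralogues 4 to 8. Of 3 detections of Hoxa9, 2 were on wild-type arrays and 1 on a transgenic array, at 3.24, 3.34 and 3.46%. All were on the same probe, and the other Hoxa9 probes were detected on no array.

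The order of the samples was shared by the 14 tested probes of paralogues 4 to 8, which read 12 genes. Wild-type replicates 1 and 3 lay above wild-type replicate 2, transgenic replicates 2 and 3 above transgenic replicate 1, and transgenic replicate 2 above wild-type replicate 2 in 14 of 14 probes. Transgenic replicate 1 was lowest in 13 of them, and the highest array was wild-type replicate 1 or 3 in 14. Each probe was correlated with the mean profile of the tested probes of other genes of paralogues 4 to 8. The correlation lay between 0.827 for Hoxa4 and 0.995 for Hoxb6 over the 6 arrays, and between 0.808 and 0.995 over the 5 arrays of slide 2. These are descriptions over arrays that all the probes share. Hoxa2 had a correlation of 0.48 with the same profile, while the brighter probes of Hoxb2 and Hoxa3 had 0.94 and 0.96.

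Averaged by class, each probe was expressed as its log2 difference from its own mean over the arrays. For paralogues 1 to 3 (11 probes) the class means were 0.07, -0.08 and 0.33 in wild-type and -0.37, 0.17 and -0.12 in transgenic samples, a range of 0.70. For paralogues 4 and 5 (7 probes) they were 0.63, -0.44 and 0.49 and -0.80, 0.19 and -0.08, a range of 1.43. For paralogues 6 to 8 (7 probes) they were 1.25, -0.58 and 1.74 and -2.68, 0.74 and -0.48, a range of 4.43. The median range of a single probe was 1.12, 1.42 and 3.20 in these classes, against 0.51 over all tested probes. The class of paralogues 6 to 8 had a range of 3.76 with undetected signals raised to the array's lowest detected signal, 2.32 without transgenic replicate 1 and 2.16 with normexp background correction.

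**Figure D3:**
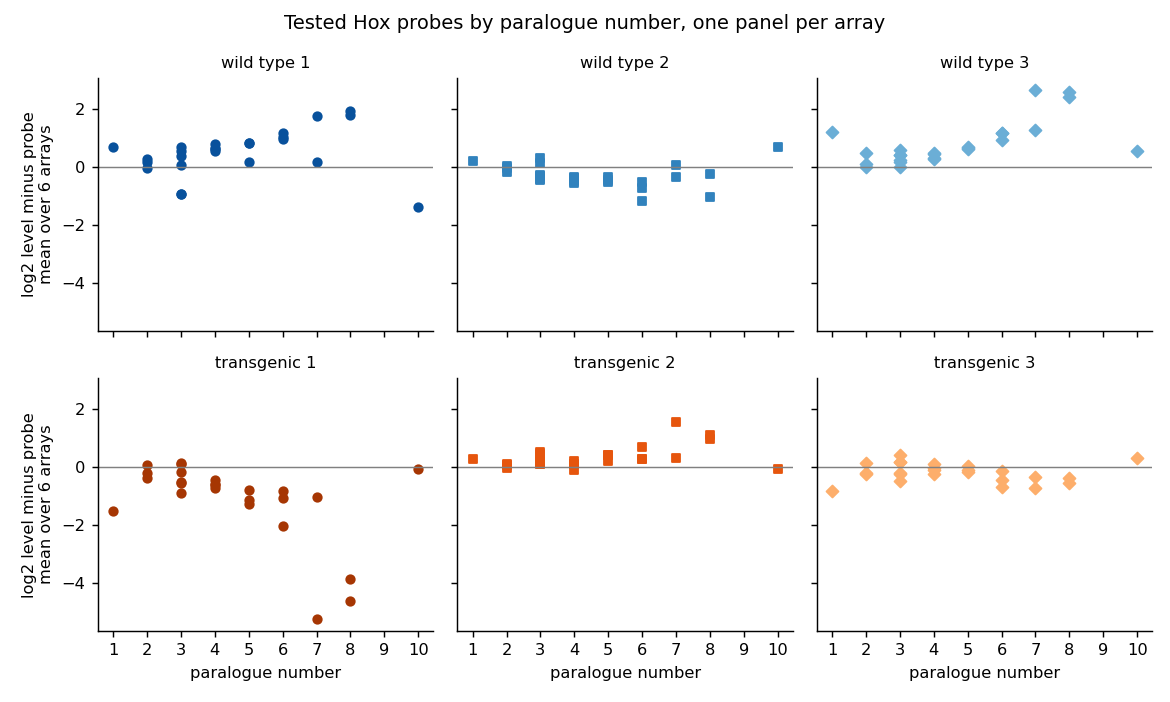
Each panel is 1 array, and each point a tested Hox probe, placed by its paralogue number and by its log2 level minus its own mean over the 6 arrays. In wild-type replicates 1 and 3 and transgenic replicate 2 the points rise towards paralogue 8, in transgenic replicate 1 they fall, and the point at paralogue 10 is Hoxc10.

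Within the HoxB cluster the probes farthest from Hoxb1 had the widest spread, with distances taken between mm9 probe positions on chromosome 11. The log2 range over the 6 arrays was 0.89 and 0.43 for the Hoxb2 probes at 13.3 and 16.6 kb, and 1.57, 1.36 and 1.25 for the Hoxb3 probes at 21.3, 25.6 and 26.02 kb. It was 1.37 for Hoxb4 at 45.6 kb, 1.97 for Hoxb5 at 61.3 kb and 3.20 for Hoxb6 at 65.9 kb. With transgenic replicate 1 at its bound it was 5.95 for Hoxb7 at 77.0 kb and 6.36 and 4.49 for the Hoxb8 probes at 81.9 and 82.0 kb. The increase was not even, since a Hoxb3 probe varied more than Hoxb4. Inside the wild-type group, where all were detected, the ranges were 1.69 for Hoxb6, 2.999 for Hoxb7 and 2.84 and 3.46 for the Hoxb8 probes. The spread was therefore present among samples of 1 genotype.

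In the comparison of genotypes no Hox probe was called. A probe was tested if every array of one genotype or the other had it well above background, which kept 26 probes of 20 genes, 5 of them (Hoxd1, Hoxb7, both of Hoxb8 and Hoxc10) through 1 genotype only. In limma with Benjamini-Hochberg adjustment over all 38463 tested probes, 0 of the 26 had an adjusted p under 0.05, beside 11 of all probes (0.0286%). The adjusted p of the Hox probes lay between 0.843 and 0.969. At an unadjusted p under 0.05 there was 1, Hoxd1 (limma adjusted p = 0.843), beside 5.59% of all tested probes. The genotypes did not overlap in 0 of the 26, beside 13.9% of all tested probes. With 3 samples against 3, an exact permutation test of a single value cannot go below p = 0.10.

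The widest genotype differences belonged to the probes with the widest spread. The log2 difference, transgenic minus wild type, was -2.74 ± 1.55 (SE, n = 3 per genotype) and -2.19 ± 1.47 for the Hoxb8 probes and -2.71 ± 1.80 for Hoxb7. With undetected signals at their bound the values were -2.45, -1.59 and -2.06. Without transgenic replicate 1 they were -1.10, -0.80 and -0.76, and without wild-type replicate 2 they were -3.55, -3.27 and -3.56.

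Hoxb6 had a difference of -1.20 ± 0.79, which was -0.48 without transgenic replicate 1. Hoxa7 had -0.99 ± 0.47, and Hoxd1 -1.38 ± 0.49, which became -0.48 with normexp. Hoxa5 had -0.65 ± 0.52, which was -0.18 without transgenic replicate 1. In all 14 probes of paralogues 4 to 8 the range within the wild-type group and the range within the transgenic group were each larger than the genotype difference.

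Hoxa2 had a difference of 0.02 ± 0.12, whose sign turned under quantile and median scaling. By class, the mean log2 difference was -0.21 for paralogues 1 to 3, -0.46 for 4 and 5 and -1.61 for 6 to 8, the last being -1.39 with undetected signals at their bound. In that class 3 of the 7 probes (Hoxb7 and both of Hoxb8) entered through the wild type alone, where they were high, so its mean is a description and supports nothing further. Without transgenic replicate 1 the means were -0.08, -0.17 and -0.67. On slide 2 alone, without wild-type replicate 1, they were -0.23, -0.26 and -1.39. Of the 21 Hox probes well above background on all 6 arrays, 17 were lower in the transgenic samples with a median log2 difference of -0.38, where 51.9% of all tested probes were lower and their median was -0.01. These probes share their order of samples and are not separate observations of a genotype effect.

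**Figure D4:**
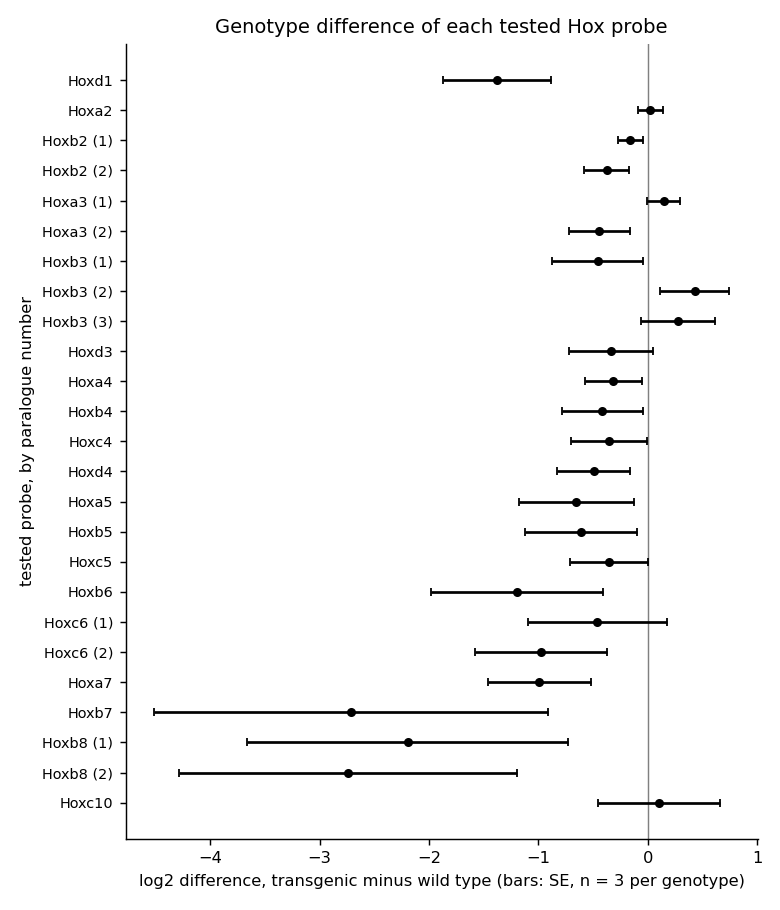
Points give the log2 difference, transgenic minus wild type, of each of 25 tested Hox probes in order of paralogue number, with bars of 1 SE (n = 3 per genotype) and numbers in brackets for separate probes of a gene. The bar is short for Hoxa2 (0.12) and widest for Hoxb7 (1.80).

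Other transcripts inside the Hox clusters split into those that followed the Hox order and those that did not. Between the outermost Hox probes lay 34 probes of other names, of which 21 were tested and 0 were called in limma. AI448005 of the HoxD cluster, at 304, 178 and 268% in wild-type and 137, 230 and 182% in transgenic samples, had the order of Hoxd4. The antisense transcript Hoxb5os was at 15.7, 6.68 and 13.6% and at 3.14, 12.3 and 11.8% on one probe, again lowest in transgenic replicate 1. On its other probe it was at 45.7, 143 and 133% and at 109, 129 and 148%, low on wild-type replicate 1 only. Of the 21 tested probes, 8 were lowest on wild-type replicate 1 and had a log2 range under 0.5 over the 5 arrays of slide 2, among them both probes of Hoxa11os and that of Haglr. AI448005, Hoxa11os and Haglr were named after their values were seen.

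The list means of genes that act with or on Hox genes moved little between arrays, although members of opposite sign cancel in such a mean. Of the 9 cofactor genes of the PBC and MEIS families, whose proteins bind DNA together with Hox proteins, 0 were called, and their mean moved by a range of 0.12 on the log2 scale over the arrays, with a median range of 0.34 for a single gene. Among them Meis3 had a log2 difference of 0.18 ± 0.09 and Meis1 of -0.17 ± 0.10. Of 16 tested genes of retinoic acid synthesis, breakdown and reception, the signal that sets Hox limits in the embryo, 0 were called, the range was also 0.12 and the median range of a gene 0.40, with Aldh1a3 at -0.40 ± 0.12 and Crabp1 at -0.33 ± 0.22. The mean of this list correlated at 0.75 with that of Hox paralogues 6 to 8 over the 6 arrays, a description. Of 33 Polycomb and Trithorax subunits, which keep Hox genes silent or active, 0 were called, the range was 0.06 and the median range of a gene 0.43, with Ezh2 at -0.34 ± 0.08, Pcgf2 at 0.73 ± 0.35 and Men1 at 0.25 ± 0.13.

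Of the 7 tested segmental and caudal regulators of Hox genes, 0 were called and the list's range was 0.21, while the median range of a single gene was 1.09, close to the 1.12 of the tested Hox probes of paralogues 1 to 3. Egr2, which acts in 2 hindbrain segments of the embryo and is also an immediate early gene, was at 4.07, 3.47 and 4.20% in wild-type and at 9.49, 9.30 and 10.74% in transgenic samples (log2 difference 1.33 ± 0.12, limma adjusted p = 0.0662). Its groups did not overlap, which the Hox probes did not show. Vgll2 had -1.07 ± 0.20 (limma adjusted p = 0.318). Of 15 tested genes in the list of other transcripts of the Hox clusters, 0 were called, with a range of 0.36 and Mtx2 at -0.27 ± 0.14 and Hottip at 0.24 ± 0.15. Hoxaas2, an antisense transcript of the HoxA cluster, was at 38.2, 24.9 and 34.5% in wild-type and at 18.2, 22.8 and 16.7% in transgenic samples (log2 difference -0.75 ± 0.20, limma adjusted p = 0.647). Its groups did not overlap, although it was not called, and among the transgenic samples replicate 3 was lowest.

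Markers of neighbouring regions and tissues were set beside the Hox order. The 26 cerebellar granule and Purkinje cell genes had list means within a range of 0.19, and the 28 tested brainstem and cranial motor neuron genes within 0.51, with 0 called in both. Zic4, Zic2 and Cbln1 of the cerebellar list had log2 differences of -0.25 ± 0.11, 0.51 ± 0.23 and -0.23 ± 0.11. The 16 tested rostral homeobox genes of midbrain, isthmus and forebrain had a range of 0.57 and 0 called, with Pitx3 at 0.49 ± 0.15, Emx2 at 1.03 ± 0.36 and Six3 at 0.76 ± 0.27. The 12 choroid plexus genes, 16 forebrain neuron genes, 15 meningeal genes and 7 muscle genes had ranges of 0.42, 0.36, 0.32 and 0.67 and 0 called. Among their members were Prlr (0.38 ± 0.19), Sostdc1 (-0.73 ± 0.47) and F5 (-0.26 ± 0.17) of the choroid plexus and Nrgn (0.45 ± 0.20) of the forebrain. Others were Ptgds (0.34 ± 0.11) and Igf2 (0.32 ± 0.18) of the meninges and Myod1 (0.69 ± 0.28), Tnni2 (0.85 ± 0.54) and Tnnt3 (0.38 ± 0.30) of muscle. No list mean had a range as wide as the class mean of paralogues 4 and 5. Members of opposite sign cancel in a list mean, and the median range of a single gene was wider in each of these lists. It was 0.42 for the cerebellar, 0.73 for the brainstem, 0.84 for the rostral and 1.31 for the muscle genes. For the choroid plexus, forebrain and meningeal genes it was 0.63, 0.74 and 0.45. The median range of a probe of paralogues 4 and 5 was 1.42.

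Among the 28 tested brainstem genes, Dbh and Slc6a2 varied between samples in a related way. The mean of the whole list correlated at -0.08 with the class mean of Hox paralogues 6 to 8 over the 6 arrays, a description. Dbh, the noradrenaline-synthesising enzyme, was at 95.8, 293 and 93.2% in wild-type and at 285, 246 and 349% in transgenic samples. Slc6a2, the noradrenaline transporter, was at 8.45, 47.1 and 7.59% and at 45.5, 30.4 and 50.4%. Both were low in wild-type replicates 1 and 3, the samples highest in paralogues 4 to 8, and lowest among the transgenic samples in replicate 2, the transgenic sample highest in those paralogues. Neither was called (log2 differences 1.08 ± 0.46 and 1.51 ± 0.72, limma adjusted p = 0.843 each). Chat, of cholinergic neurons, was at 96.7, 99.1 and 119.7% and at 82.4, 95.2 and 88.3%. The part of the dissection's extent in these values was not tested.

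**Figure D5:**
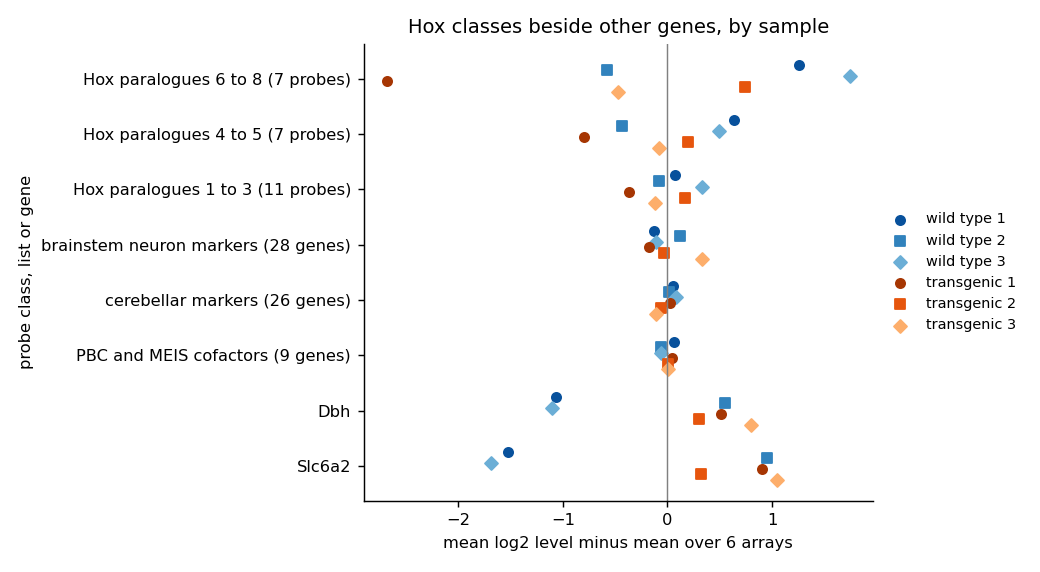
Points give, for each sample, the mean log2 level of a probe class, gene list or single gene minus its mean over the 6 arrays. The samples spread over 4.43 for Hox paralogues 6 to 8 and over 0.12 for the cofactor genes, and wild-type replicates 1 and 3 lie to the right for Hox paralogues 4 to 8 and to the left for Dbh and Slc6a2.

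The samples of the 2 genotypes did not overlap in the means of the glial lists, nor in those of the rostral homeobox and muscle lists. Over all tested probes, 13.9% had groups that did not overlap. The glial lists were written with earlier results of these data known and hold called genes, so their separation is a description. On the 1 probe used for each gene, 2 of 14 microglial and 1 of 14 oligodendrocyte genes were called, beside 11 of all 38463 tested probes (0.0286%). The mean of 14 microglial genes deviated by -0.45, -0.58 and -0.51 in wild-type and by 0.50, 0.40 and 0.64 in transgenic samples. Clec7a (3.32 ± 0.19) and Itgax (3.76 ± 0.24) were called higher. Cd68 was not called on the probe used in the list (1.097 ± 0.11, limma adjusted p = 0.0701). A dimmer Cd68 probe was called higher (1.41 ± 0.09, limma adjusted p = 0.0279). The mean of 14 oligodendrocyte genes deviated by 0.20, 0.19 and 0.30 and by -0.20, -0.26 and -0.24, with Klk6 (-2.06 ± 0.12) called lower and Fa2h (-0.88 ± 0.09) and Mog (-0.42 ± 0.09) not called. Over the 6 arrays the microglial mean correlated at -0.54 and the oligodendrocyte mean at 0.54 with the class mean of Hox paralogues 6 to 8, a description. Transgenic replicate 1, lowest in paralogues 4 to 8, lay between the other transgenic samples in the microglial list.

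The named genes outside the clusters whose profile over the 6 arrays was most like the mean of the tested probes of paralogue 4 and up were Nectin4 (Pearson r = 0.997), Tdrkh (0.995), Tmem131 (0.992), Magef1 (0.985), Zfp182 (0.983) and Tac2 (0.983). With 38463 probes and 6 arrays such values are a ranking only. Tac2, which encodes neurokinin B, had the widest span of these, at 76.2, 30.8 and 95.4% in wild-type and at 16.3, 45.8 and 36.0% in transgenic samples. Zfp182 stayed between 23.1 and 25.9%.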

How the data were processed

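Total RNA of 3 wild-type and 3 MSA transgenic samples was hybridised to single-colour (Cy3) Agilent mouse arrays. Per the file headers the authors' scanner files hold linear intensity after background subtraction by Feature Extraction 10.7.1.1 (protocol GE1_107_Sep09, build mm9). The submitters' processing notes give version 9.5.1.1. A second, processed table of intensity was deposited by the authors, of which at least 99.9% per column equalled a quantile normalization of the signals within 0.01 log2. That table served as an alternative.

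The log2 of each array's 75th percentile was subtracted from the log2 processed signal. Control spots and 39 to 84 outlier spots per array were left out, and 0 probes were saturated. Spots of a probe were averaged. Of 56605 probes, 38463 were well above background on all arrays of a genotype and were tested with limma 3.58.1 (R 4.3.3), called at a Benjamini-Hochberg adjusted p under 0.05. Genes of lists were named through the RefSeq gene table of GRCm38.p6, used for names only (32994 probes by accession, 10224 by symbol, 520 by synonym, 12867 by the file's name). A list uses each gene's tested probe with the highest mean.

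Members and lists were chosen with earlier results of these data known. The naming rule took every tested Hox gene, up to 3 genes per list with the smallest p or a call, and 6 genes by likeness. Some genes that this rule takes are not reported here. The fit was tested on simulated data. Precision is limited by the number of arrays. Alternatives changed the background, scaling, filter, slide, title number, variance model, probe choice, detection call and each sample left out.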

Additional observations from a re-analysis of the deposited data

How the results depend on the processing

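No Hox probe was called under any of 18 other settings (lowest limma adjusted p = 0.474), and 398 of 414 differences of 25 tested probes kept their sign. These settings, and the turned signs listed below, leave out the fit with a Hox covariate. They are not all separate, since slide as a block and leaving out wild-type replicate 1 gave the same fit. The authors' table also nearly equalled quantile normalization. The count of all called probes was 11, and it was 37 with normexp, 24 with median scaling, 4 with no filter, 23 with probes detected on all arrays, 34 with an intensity trend, 94 with array weights, 24 with probes averaged per gene and 2150 at an unadjusted p under 0.05. Leaving out 1 sample gave 0 to 10, with 0 without wild-type replicate 3 or transgenic replicate 1 or 2 (2043, 1559 and 1795 at an unadjusted p under 0.05). With the mean profile of Hox paralogues 4 and up as a covariate, added after seeing the data, it was 0 (1092 at an unadjusted p under 0.05). In that fit 12 of the 26 Hox probes were lower in the transgenic samples, against 21 in the main fit. The covariate is made from those of these probes that are of paralogue 4 and up, so their signs in it are a description. The class range of paralogues 1 to 3 was 0.45 with normexp and 1.05 with 1 probe per gene, and 0.45 to 0.70 with 1 sample left out. That of 6 to 8 was 2.16 with normexp and 2.38 with probes detected on all arrays, and 2.32 to 4.43 with 1 sample left out. That of 9 to 13, which is Hoxc10 alone, was 0.29 with normexp and 0.77 to 2.06 with 1 sample left out, and 0.40 for the mean of all 21 probes of that class with no filter. By the looser call gIsPosAndSignif, 6 genes of paralogues 6 to 8 and 2 of 9 to 13 were detected on all arrays, and by 3 SD of negative controls 1 of the latter. Signs turned for Hoxc10 (0.10 to -0.26 with normexp, -0.57 with slide as a block, -0.55 with array weights, -0.57 to 0.46 with 1 sample left out), Hoxa2 (-0.10 with normexp, -0.013 with quantile normalization or the authors' table, -0.010 with array weights, -0.020 with median scaling, -0.029 to 0.13 with 1 sample left out), a dim Hoxa3 probe (-0.15 with normexp) and a Hoxb3 probe (-0.12 with slide as a block, -0.084 with array weights, -0.12 to 0.50 with 1 sample left out). The causes were not tested. No paired analysis was possible because no number in the labels is shared by samples of both genotypes, and the labels do not say that neighbouring numbers are related. Signals near background limit Hoxb7, Hoxb8, Hoxc10 and all higher paralogues.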
